A study of Mus musculus with 9 samples.

Results

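The genes described here were grouped as enzymes that degrade the amyloid beta peptide: Ide, Nrdc, Pitrm1, Mme, Ece1, Ece2, Ace, Ctsb and Ctsd. Whether each enzyme cuts this peptide was not tested here. These genes were chosen by name, with earlier results of these data known. They make up 9 of the 48709 genes listed in the exon counts of each library. All 9 passed the filter on low counts, together with 17361 genes in all. Counts were compared between neuronal nuclei sorted by NeuN, a protein of neuronal nuclei, from frozen hippocampi of 3 vehicle-treated WT mice, 3 vehicle-treated Tg4-42 mice and 3 caffeine-treated Tg4-42 mice, all on a C57BL/6J background. Tg4-42 mice were homozygous for a transgene in which the murine Thy1 promoter drives human Aβ4-42, fused to the signal peptide of murine thyrotropin-releasing hormone, in neurons. Caffeine was given at 300 mg/l in the drinking water for 4 months from 2 months of age, and vehicle was tap water, so that all mice were about 6 months old. There was no caffeine-treated WT group. A library is called a mouse below, but the labels name 6 mice per group for nuclei isolation. Whether nuclei were pooled is not given. A treatment is named in the labels of the caffeine-treated mice alone, and that the others received vehicle was read from the genotype label and the design of the study.

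Amyloid beta is removed from the brain in part by proteolysis, in the cytosol, at the cell surface, in secretory and endosomal vesicles and in lysosomes. Insulin-degrading enzyme (Ide), nardilysin (Nrdc) and the mitochondrial peptidase Pitrm1 are zinc metalloproteases of the pitrilysin family that enclose short peptides in a chamber. Neprilysin (Mme) and the endothelin-converting enzymes (Ece1, Ece2) form another zinc metalloprotease family, angiotensin-converting enzyme (Ace) is a peptidase of the cell surface, and cathepsins B and D (Ctsb, Ctsd) are a cysteine and an aspartic protease of lysosomes.

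Library totals lay between 9342945 and 16376922 counts. Levels are given as CPM, counts scaled to library size by TMM, and 3 counts corresponded to between 0.190 and 0.325 CPM, which covers counting error only. Trh, whose signal peptide is part of the transgene, was at 1.81 to 4.39 CPM in WT mice and at 48.0 to 64.7 CPM in the 6 Tg4-42 mice. Thy1, whose promoter it carries, was at 82.1 to 88.8 CPM in WT mice and 460.7 to 670.1 CPM in Tg4-42 mice, so both went with the labelled genotype. The summed level of 6 neuron markers lay between 5570 and 8075 CPM and that of 7 microglia markers between 23.2 and 39.7 CPM, and no marker of any of the 15 lists was at 0 in all libraries. Replicates 1 and 2 of each group were sequenced on lane 6 and replicate 3 on lane 7. The differences below were tested with edgeR's quasi-likelihood F test in 1 fit of all 9 libraries with Benjamini-Hochberg adjustment over the tested genes, and a gene with an adjusted p under 0.05 is called.

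The 9 genes lie apart in the mouse genome (mm10, GENCODE M21). Ide (ENSMUSG00000056999) is on chromosome 19 from 37268743 to 37337852 on the minus strand, Nrdc (ENSMUSG00000053510, annotated as Nrd1) on chromosome 4 from 109000655 to 109061777, Ctsb (ENSMUSG00000021939) on chromosome 14 from 63122462 to 63145923 and Ctsd (ENSMUSG00000007891) on chromosome 7 from 142375911 to 142388038 on the minus strand. Ace (ENSMUSG00000020681) is on chromosome 11 from 105967945 to 105989964. The exons of 6 members overlap exons of another annotated gene, and the strand setting of the counting was not given in the sources used here. For Ece2, 57.5% of exon bases are shared with Gm49333 on the same strand, which has no row in the files, and for Ctsd 34.4% with Gm49369, which had no counts. On the opposite strand, Ctsb shares 12.8% of its exon bases with Fdft1, Pitrm1 15.6% with Pfkp, Nrdc 8.87% with Osbpl9 and Ace 5.58% with the antisense gene Gm11651, which had no counts. Fdft1, a gene of sterol synthesis, had a mean of 64.8 CPM against 1259 CPM for Ctsb, whereas Pfkp, a gene of glycolysis, had 414.7 CPM against 47.3 CPM for Pitrm1. With caffeine compared to vehicle in Tg4-42 mice, the log2 fold change was -0.68 for Fdft1 beside -0.67 for Ctsb, and -0.33 for Pfkp beside -0.31 for Pitrm1. The part of reads from the shared bases in the counts of either gene was not tested.

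The upstream sequences of Ctsd and Ace, which were lower in each caffeine-treated mouse than in any vehicle-treated mouse, are shown beside that of Nrdc, which was at a similar level in all groups. Each holds the 250 bases before the RefSeq start (mm10), written 5′ to 3′ on the strand of the gene. Capitals mark the CLEAR E-box core CACGTG, the GC box GGGCGG, the CCAAT box CCAAT and the TATA box TATAAA on either strand. Ctsd is read from the minus strand of chr7:142387828-142388077, Ace from the plus strand of chr11:105967698-105967947 and Nrdc from the plus strand of chr4:109000405-109000654.
Ctsd: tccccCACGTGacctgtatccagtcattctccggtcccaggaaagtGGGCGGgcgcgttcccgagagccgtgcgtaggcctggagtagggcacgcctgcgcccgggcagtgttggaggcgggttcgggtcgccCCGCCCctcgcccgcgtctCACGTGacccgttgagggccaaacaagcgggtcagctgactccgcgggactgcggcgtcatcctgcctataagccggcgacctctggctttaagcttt
Ace: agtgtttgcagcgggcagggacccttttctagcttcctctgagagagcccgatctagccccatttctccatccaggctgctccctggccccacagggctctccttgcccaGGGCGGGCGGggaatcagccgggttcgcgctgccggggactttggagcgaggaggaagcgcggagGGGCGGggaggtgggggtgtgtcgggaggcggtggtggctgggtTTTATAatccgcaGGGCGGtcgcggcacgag
Nrdc: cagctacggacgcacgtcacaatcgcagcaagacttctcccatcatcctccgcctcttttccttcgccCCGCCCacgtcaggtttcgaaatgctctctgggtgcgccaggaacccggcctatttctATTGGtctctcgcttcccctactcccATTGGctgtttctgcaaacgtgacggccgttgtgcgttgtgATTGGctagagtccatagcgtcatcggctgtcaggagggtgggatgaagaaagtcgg
The Ctsd sequence holds 2 copies of CACGTG, at positions -245 and -98 counted from the start, a motif found in 6.02% of 32851 promoter windows of this length. A protein-coding transcript of Ctsd in GENCODE begins further upstream than the RefSeq start, at 142388038, so the copy at -98 lies inside that transcript and the copy at -245 upstream of it. CACGTG is the core of the element through which the factor TFEB acts on lysosomal genes. Among the other members with an entry, it was found only in a window of Ece1, at -90, which is not shown. The Ace sequence holds 4 GC boxes, 2 of them overlapping, and a TATA box at -31, motifs present in 32.7% and 12.4% of windows. The Nrdc sequence holds 3 CCAAT boxes (33.8% of windows) and 1 GC box. The cyclic AMP response element TGACGTCA, present in 1.55% of windows, was found in none of the windows of the 8 members with an entry. Ctsb has no entry. For Ide the annotations differ: RefSeq places the start at 37334544, whereas the protein-coding transcript of GENCODE begins at 37330613 and a transcript with a retained intron at 37337852, and its upstream sequence is therefore not shown. These motifs are letters in a window and were not tested for binding.

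Per length, the lysosomal cathepsins were the most abundant members and Mme and Ace the least. In WT mice, exon counts per kb of merged exon were 233.2 CPM for Ctsb, 123.4 for Ctsd, 22.5 for Nrdc, 12.6 for Ide, 11.2 for Ece2, 9.64 for Pitrm1, 9.54 for Ece1, 0.959 for Mme and 0.929 for Ace. Ide, Ece2, Pitrm1 and Ece1 followed each other with overlapping ranges over the 3 mice, as did Mme and Ace, whereas the other neighbours in this order did not overlap. In vehicle-treated Tg4-42 mice Ide stood at 27.9 CPM per kb, above Nrdc at 22.9, with overlapping ranges. In caffeine-treated Tg4-42 mice Ide stood at 16.4 and below Nrdc at 22.1, without overlap. The sum of all 9 per kb was 385.0, 444.9 and 442.3 in WT mice, 442.0, 424.7 and 471.1 in vehicle-treated Tg4-42 mice and 333.3, 298.0 and 269.3 in caffeine-treated Tg4-42 mice, the last group lying below both others. Ctsb made up 54.9% ± 1.18 (SD, n = 3) of this sum in WT, 53.8% ± 0.709 in vehicle-treated and 50.1% ± 3.15 in caffeine-treated Tg4-42 mice. The share of Ide was 2.999% ± 0.920, 6.33% ± 1.92 and 5.51% ± 0.599.

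**Figure D1:**
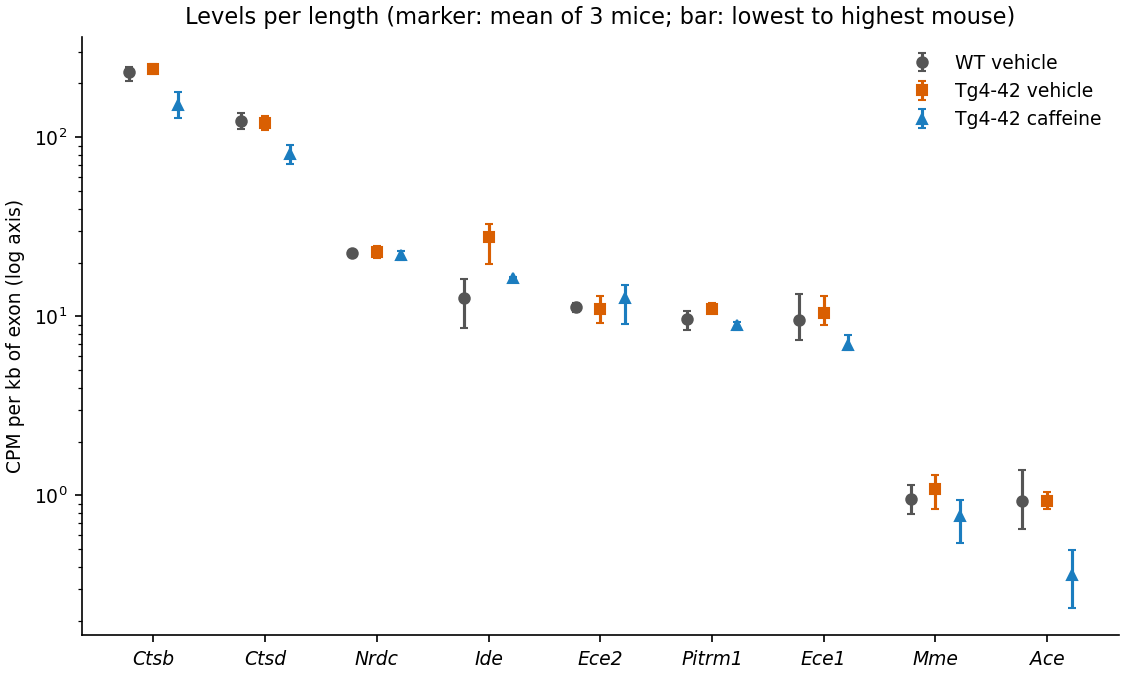
Level of each enzyme per kb of exon in the 3 groups, on a log axis, with the mean of 3 mice as a marker and the lowest and highest mouse as a bar. Ctsb and Ctsd lie above the rest in every group, the mean of Ide lies above that of Nrdc in vehicle-treated Tg4-42 mice and below it in the other groups, and Mme and Ace lie lowest.

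Counted over the 9 enzymes, edgeR called 0 in vehicle-treated Tg4-42 against WT mice, beside 0.0979% of all tested genes, while DESeq2 called 1, Ide, beside 0.0939%. An unadjusted p under 0.05 was found for 1, Ide, beside 1.65% of all genes that were higher at this p, and Ide was also the only enzyme that was higher without overlap (3.57% of all genes). The median log2 fold change of the enzymes was 0.04, against 0.0018 over all genes. With caffeine compared to vehicle in Tg4-42 mice, 1 enzyme was called with edgeR, beside 0.881% of all genes, and 4, Ide, Ctsb, Ctsd and Ace, with DESeq2, beside 5.33%. For 6 enzymes the unadjusted p was under 0.05, all of them lower, beside 9.82% of all genes that were lower at this p. The same 6, Ide, Ece1, Pitrm1, Ctsb, Ctsd and Ace, were lower without overlap, as were 12.6% of all genes. The log2 fold change was negative for 8 of 9 enzymes and for 51.5% of all genes, and the median was -0.58 against -0.01. Between caffeine-treated Tg4-42 and WT mice, 0 enzymes were called with edgeR (0.415% of all genes) and 3, Ctsb, Ctsd and Ace, with DESeq2 (4.10%). An unadjusted p under 0.05 was found for 4, all lower (8.65% of all genes), Ctsb, Ctsd and Ace were lower without overlap (9.67%) and Ide higher without overlap (9.14%). The 3 comparisons share groups and are not independent of each other.

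**Figure D2:**
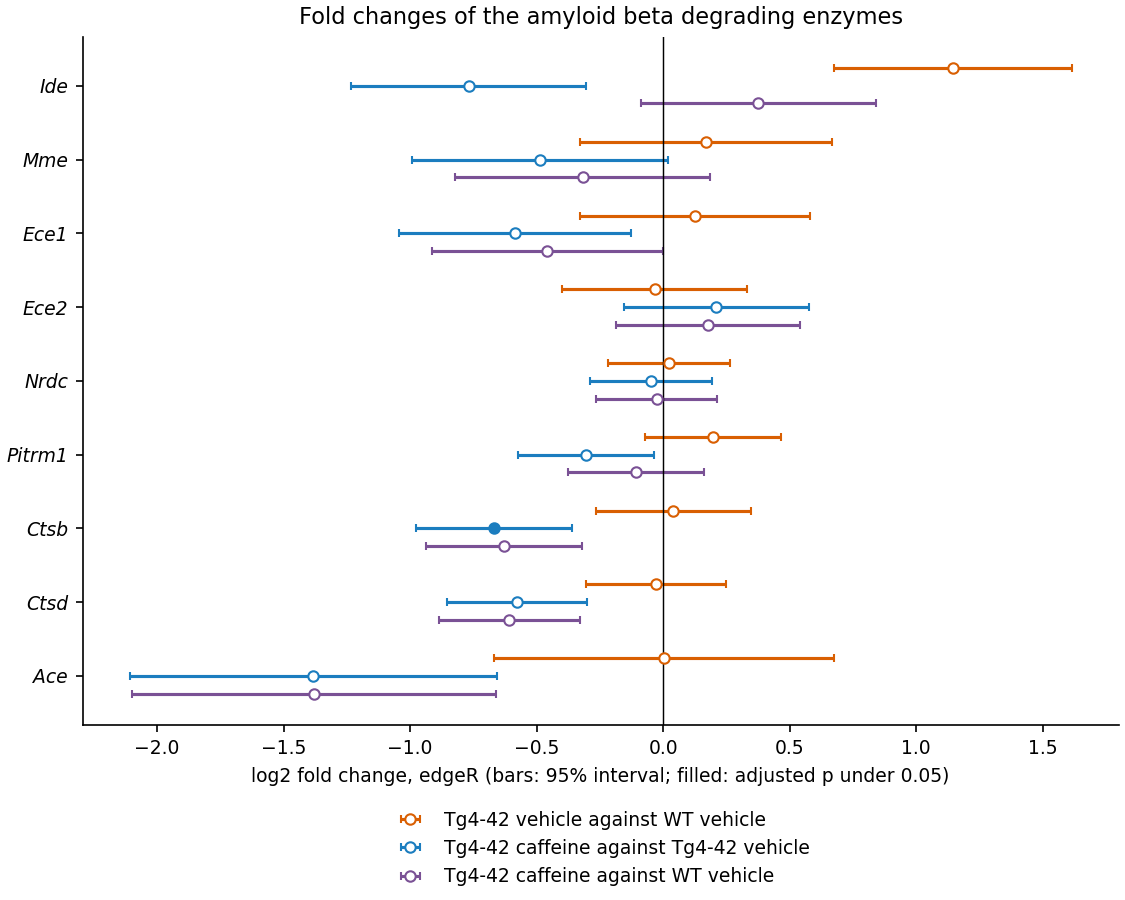
Log2 fold change of each enzyme in the 3 comparisons, from edgeR, with 95% intervals; filled markers have an adjusted p under 0.05. Ide stands alone to the right in vehicle-treated Tg4-42 against WT mice, and with caffeine the intervals of Ide, Ece1, Pitrm1, Ctsb, Ctsd and Ace lie below 0 while only Ctsb is filled.

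Ide, a protease that degrades insulin and amyloid beta, had its highest levels in vehicle-treated Tg4-42 mice. It was at 98.7, 64.9 and 120.8 CPM in WT mice, at 235.1, 247.3 and 146.7 CPM in vehicle-treated Tg4-42 mice and at 121.8, 124.9 and 122.5 CPM in caffeine-treated Tg4-42 mice. The groups did not overlap in any of the 3 comparisons, and the caffeine-treated mice lay within 3.1 CPM of each other while the vehicle-treated mice spread over 100.6 CPM. Its mean was 2.21 times as high in vehicle-treated Tg4-42 as in WT mice, with a log2 fold change of 1.15 (SE 0.22, 95% interval 0.68 to 1.61). Its adjusted p was 0.127 with edgeR (unadjusted p 0.000146), rank 20 by p and rank 99 by log2 fold change among the tested genes, so Ide was not called. With DESeq2, the tool used in the study, the adjusted p was 0.000274. The difference was larger between the mice of lane 6, at 1.58 on the log2 scale, than between the single mice of lane 7, at 0.28. Replicate 3 of the WT group and replicate 3 of the Tg4-42 vehicle group decided the call, since the edgeR adjusted p was 0.0311 without the former and 0.00624 without the latter, and between 0.286 and 0.681 without any other mouse of these 2 groups.

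In Tg4-42 mice given caffeine rather than vehicle, Ide had a log2 fold change of -0.77 (SE 0.22, 95% interval -1.23 to -0.30), with an adjusted p of 0.106 with edgeR and of 0.0177 with DESeq2. Within lane 6 the difference was -0.96 and within lane 7 -0.26. Compared to WT mice, the caffeine-treated mice had a log2 fold change of 0.38 (SE 0.22, edgeR adjusted p 0.424), which was 0.16 without replicate 2 and 0.59 without replicate 3 of the WT group.

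**Figure D3:**
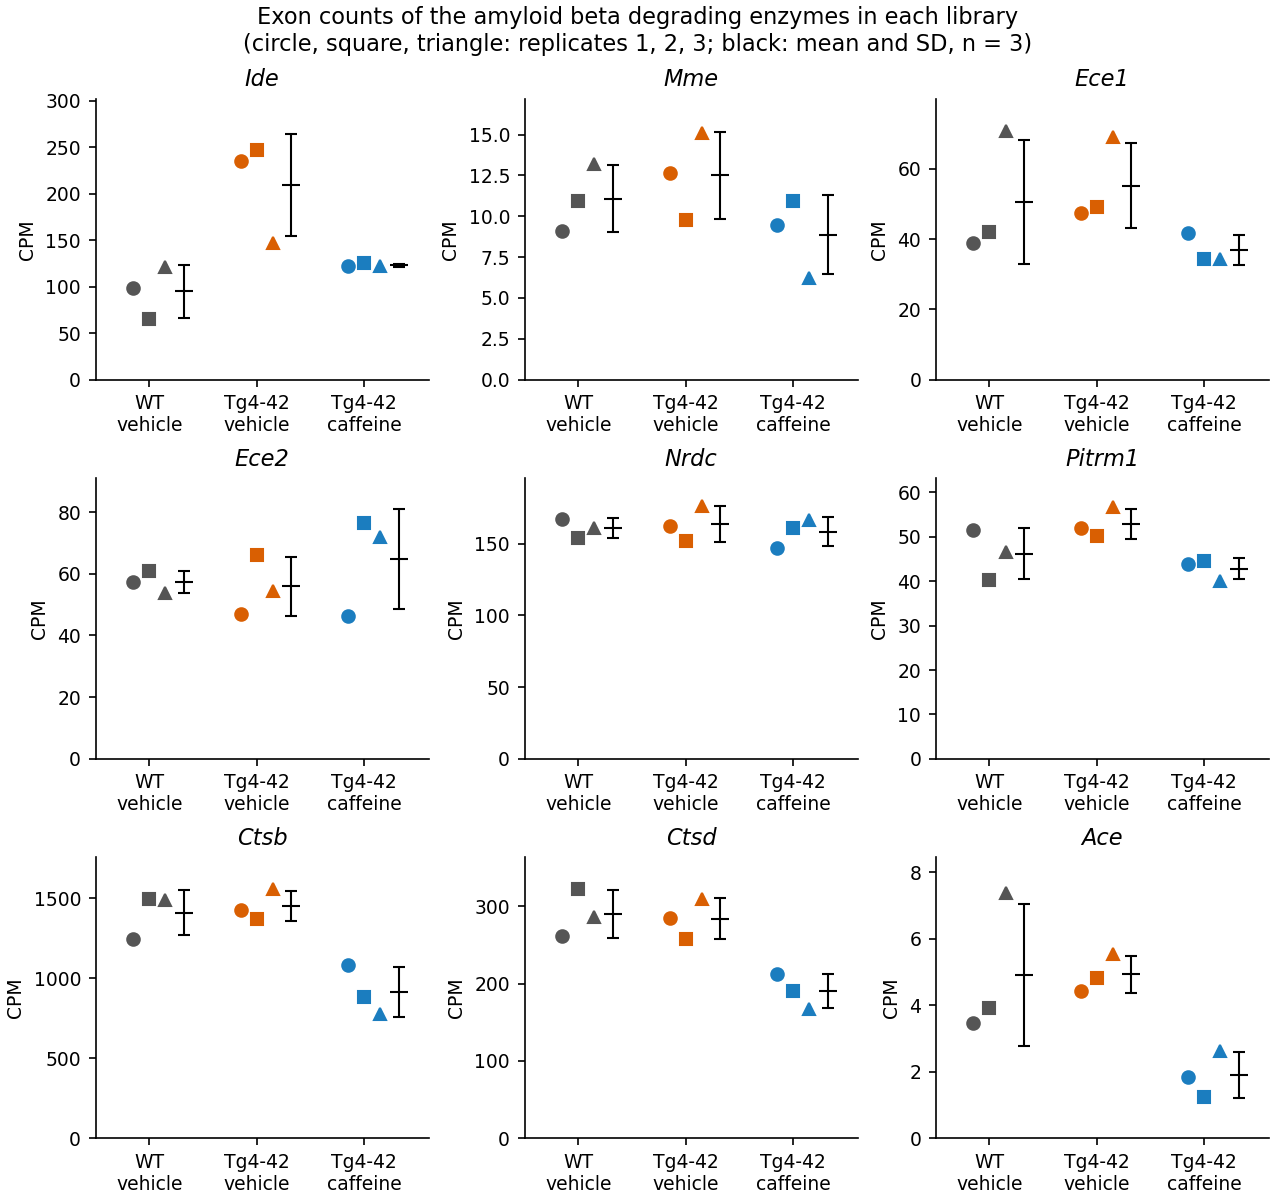
Exon counts of the 9 enzymes in CPM in each of the 9 mice, with circle, square and triangle for replicates 1, 2 and 3 and the mean ± SD (n = 3) in black; each panel has its own axis from 0. Ide is highest in vehicle-treated Tg4-42 mice, where replicate 3 lies at 146.7 CPM, and Ctsb, Ctsd and Ace are lowest in caffeine-treated mice.

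To see how far Ide differed from the other enzymes, its level was divided by that of each in the same mouse. Relative to the summed level of the 8 others, the log2 ratio was -4.22, -5.04 and -4.14 in WT mice and -3.12, -2.99 and -3.93 in vehicle-treated Tg4-42 mice. The groups did not overlap and differed by 1.12 (two-sided exact permutation p 0.1, the smallest that 3 mice against 3 allow). Taken one by one, the ratio was on average higher in vehicle-treated Tg4-42 than in WT mice for 8 of 8 enzymes. The difference ranged from 0.95 over Pitrm1 to 1.20 over Ece2. The groups did not overlap for Ece2, Nrdc, Pitrm1, Ctsb and Ctsd. Over Pitrm1 they all but met, with the lowest Tg4-42 value at 1.374 and the highest WT value at 1.373. These 8 ratios share the level of Ide and are not independent of each other. The other enzymes had log2 fold changes of -0.03 to 0.20 in this comparison, so the ratios largely repeat the difference of Ide. With caffeine, the ratio to the summed level was -3.70, -3.49 and -3.37, within the range of the vehicle-treated Tg4-42 mice (difference -0.17, exact permutation p 0.6). Ctsb, itself lower with caffeine, makes up most of this sum, and the difference was -0.41 over the sum without Ctsb (exact permutation p 0.4) and -0.62 for the median of the 8 ratios (exact permutation p 0.2), with overlapping groups in both cases. Within lane 6 it was -0.54 over the full sum, but the single mice of the other lane, replicate 3 of each group, went the opposite way. Their ratio to the full sum was higher with caffeine, at -3.37, than with vehicle, at -3.93. Without replicate 2 of the vehicle group the difference over the full sum was 0.0057. The ratio was lower without overlap over Ece2, with a difference of -0.93, and over Nrdc, with -0.68, while over Ctsb it differed by -0.05 and over Ace, which was itself lower with caffeine, by 0.70. Over 16 ratios to single enzymes the smallest adjusted exact permutation p was 0.229.

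**Figure D4:**
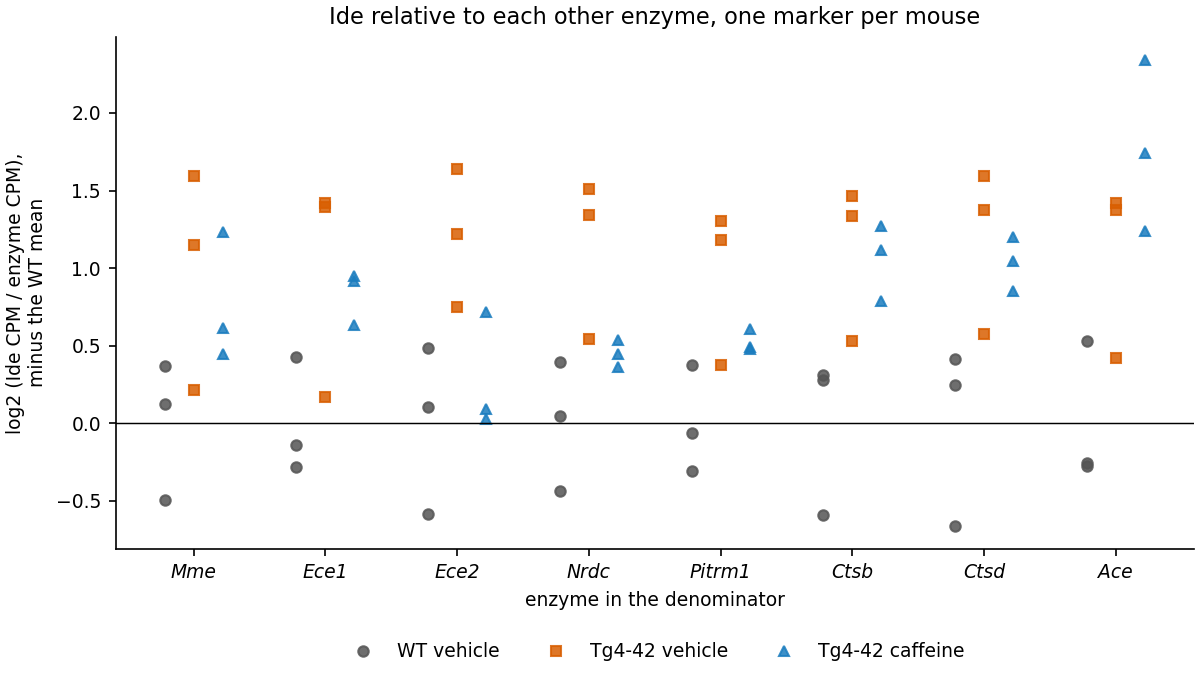
Log2 ratio of the CPM of Ide to that of each other enzyme in the same mouse, minus the mean of the 3 WT mice, with 1 marker per mouse. Squares for vehicle-treated Tg4-42 mice lie above the WT circles over Ece2, Nrdc, Pitrm1, Ctsb and Ctsd, all but touching them over Pitrm1. The caffeine triangles lie below the squares over Ece2 and Nrdc.

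Nrdc and Pitrm1, the relatives of Ide, differed less. Nrdc, which cleaves peptides before arginine in dibasic sites, was at 167.3, 154.1 and 161.1 CPM in WT, 162.4, 151.7 and 176.3 CPM in vehicle-treated Tg4-42 and 146.9, 160.8 and 166.5 CPM in caffeine-treated Tg4-42 mice, and all 3 groups overlapped. The log2 fold change was 0.02 in vehicle-treated Tg4-42 against WT mice (95% interval -0.22 to 0.26) and -0.05 with caffeine (95% interval -0.29 to 0.19). Pitrm1, which degrades presequences and amyloid beta in mitochondria, was at 51.6, 40.2 and 46.6 CPM in WT, 51.9, 50.1 and 56.6 CPM in vehicle-treated Tg4-42 and 43.8, 44.5 and 40.1 CPM in caffeine-treated Tg4-42 mice. Each caffeine-treated mouse was below each vehicle-treated Tg4-42 mouse, with a log2 fold change of -0.31 (SE 0.13) that was not called (edgeR adjusted p 0.237).

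Among the enzymes of the cell surface and of vesicles, Mme and Ece2 overlapped between all groups, and Ece1 and Ace were lower in caffeine-treated than in vehicle-treated Tg4-42 mice without being called. Mme, which codes for neprilysin, was at 9.10, 10.9 and 13.2 CPM in WT, 12.7, 9.75 and 15.1 CPM in vehicle-treated Tg4-42 and 9.48, 10.9 and 6.23 CPM in caffeine-treated Tg4-42 mice (log2 fold change with caffeine -0.49, 95% interval -0.99 to 0.02, edgeR adjusted p 0.315). Ece2, which is active at the acidic pH of vesicles, was at 57.3, 60.8 and 53.9 CPM in WT, 47.1, 66.2 and 54.4 CPM in vehicle-treated Tg4-42 and 46.3, 76.3 and 71.8 CPM in caffeine-treated Tg4-42 mice, and was the only member with a positive log2 fold change with caffeine (0.21, edgeR adjusted p 0.576). Ece1, which converts big endothelin, was at 39.0, 41.9 and 70.7 CPM in WT and at 47.4, 49.1 and 69.1 CPM in vehicle-treated Tg4-42 mice, with replicate 3, the mouse on lane 7, highest in both groups. In caffeine-treated mice it was at 41.8, 34.3 and 34.4 CPM, below each vehicle-treated Tg4-42 mouse but not below each WT mouse (log2 fold change -0.58, SE 0.21, edgeR adjusted p 0.185).

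Ace, which converts angiotensin I and can cut amyloid beta, had few counts. In WT mice it was at 3.45, 3.92 and 7.37 CPM, from 44, 62 and 114 counts, in vehicle-treated Tg4-42 mice at 4.44, 4.81 and 5.54 CPM, from 41, 75 and 69 counts, and in caffeine-treated Tg4-42 mice at 1.84, 1.24 and 2.61 CPM, from 25, 18 and 34 counts. The caffeine-treated mice lay below all 6 others, and the mean was 0.385 times that of vehicle-treated Tg4-42 mice. This was a log2 fold change of -1.38 (SE 0.34, 95% interval -2.11 to -0.66), with an adjusted p of 0.0692 with edgeR and of 0.0129 with DESeq2, and it was -1.38 also compared to WT mice (edgeR adjusted p 0.0788). Ace is also expressed by endothelial cells and choroid plexus. The summed level of 6 endothelial markers was 1.60 to 2.17 CPM in vehicle-treated and 1.54 to 1.94 CPM in caffeine-treated Tg4-42 mice, with 5 of the 6 under 1 CPM on average. That of 7 choroid plexus markers was 23.1 to 153.1 CPM and 23.9 to 66.0 CPM, with 5 of the 6 tested markers negative and 0 called, and its part in the level of Ace was not tested.

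The lysosomal cathepsins were lower in each caffeine-treated mouse than in any of the 6 other mice. Ctsb was at 1248, 1498 and 1488 CPM in WT, 1427, 1371 and 1556 CPM in vehicle-treated Tg4-42 and 1081, 882.2 and 776.4 CPM in caffeine-treated Tg4-42 mice. With caffeine its mean fell to 0.629 times that of vehicle-treated Tg4-42 mice, with a log2 fold change of -0.67 (SE 0.15, 95% interval -0.98 to -0.36), and Ctsb was the only member called with edgeR (adjusted p 0.0469). With DESeq2, which called 4, its adjusted p was 0.000570. The call was close to the threshold, and the edgeR adjusted p was 0.0688 with the lane as a covariate. It was also lost without replicate 1, 2 or 3 of the vehicle group (adjusted p 0.0876, 0.0544 and 0.246 with edgeR) and without replicate 2 or 3 of the caffeine group (0.108 and 0.304), and kept without replicate 1 of the caffeine group (0.0217). The log2 fold change stayed between -0.81 and -0.56 in these fits, and was -0.52 within lane 6 and -1.002 within lane 7.

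Ctsd, which cleaves amyloid beta at acidic pH, was at 261.9, 322.6 and 285.8 CPM in WT, 284.7, 257.7 and 310.1 CPM in vehicle-treated Tg4-42 and 212.7, 190.8 and 167.8 CPM in caffeine-treated Tg4-42 mice. With caffeine the log2 fold change was -0.58 (SE 0.13, 95% interval -0.86 to -0.30), just outside the threshold with edgeR (adjusted p 0.0505) and inside it with DESeq2 (adjusted p 0.00260). Without replicate 2 of the vehicle group or replicate 1 of the caffeine group it was called (edgeR adjusted p 0.0494 and 0.0354). It was not called with any other mouse of these 2 groups left out (edgeR adjusted p up to 0.338), nor with the lane as a covariate (0.0754). Against WT mice, the caffeine-treated mice had log2 fold changes of -0.63 for Ctsb and -0.61 for Ctsd (edgeR adjusted p 0.0724 and 0.0550). In vehicle-treated Tg4-42 against WT mice both overlapped, with log2 fold changes of 0.04 (95% interval -0.27 to 0.35) and -0.03 (95% interval -0.31 to 0.25).

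Other cells than neurons also express cathepsins, and marker levels differed between the same groups. With caffeine compared to vehicle in Tg4-42 mice, the summed level was lower without overlap for 6 of 15 marker lists, higher for 1 and overlapping for 8. Microglia markers summed to 29.8 to 39.7 CPM with vehicle and 23.2 to 28.0 CPM with caffeine, with 7 of 7 negative and 0 called, and astrocyte markers to 92.4 to 102.4 CPM and 66.3 to 87.4 CPM, with 5 of 6 negative and 0 called. Among neurons, the 7 interneuron markers summed to 849.7 to 1321 CPM and 620.5 to 785.0 CPM, with 7 of 7 negative and Slc32a1 called (log2 fold change -0.93, edgeR adjusted p 0.0462). The 7 markers of subiculum and neocortex were also lower in sum (253.7 to 328.5 CPM and 158.1 to 251.0 CPM), with 6 of 7 negative. So were the 6 striatal markers (96.7 to 129.1 CPM and 64.2 to 77.99 CPM), with 4 of 4 tested negative. The 4 CA1 markers were lower in sum as well (400.2 to 460.9 CPM and 346.4 to 366.2 CPM), with 3 of 4 negative. Pou3f1, a CA1 marker, was positive, with 0.70 compared to vehicle and 0.47 compared to WT mice (edgeR adjusted p 0.266 and 0.478). The 6 dentate granule cell markers were higher (198.8 to 462.6 CPM and 559.6 to 773.3 CPM, with 6 of 6 positive and Plk5 called at 1.52, edgeR adjusted p 0.0385). This list holds Dsp and Prox1, which the study had already reported as upregulated with caffeine in these data. The count of 6 of 6 is therefore not independent of that report. With each mouse of the 2 groups left out in turn, the call of Slc32a1 was kept only without replicate 2 of the caffeine group (edgeR adjusted p 0.0426), and that of Plk5 only without replicate 2 of the vehicle or replicate 1 of the caffeine group (0.0121 and 0.0160). Wfs1, a CA1 marker, was called lower with caffeine compared to WT mice (log2 fold change -0.77, edgeR adjusted p 0.0408), and not without replicate 2 or 3 of either group (0.0792 to 0.341). With the lane as a covariate Slc32a1, Plk5 and Wfs1 were not called (edgeR adjusted p 0.0668, 0.0575 and 0.0607). In these bulk libraries, fewer nuclei of a type and less RNA per nucleus cannot be told apart, and the part of cell makeup in the levels of Ctsb, Ctsd and the other enzymes was not tested. In vehicle-treated Tg4-42 against WT mice, the summed levels of all 15 lists overlapped.

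Genes around these enzymes were described from lists. Of 12 other cathepsins, 9 were tested and edgeR called 0 in any comparison. At an unadjusted p under 0.05, 2 were lower with caffeine compared to vehicle (9.82% of all genes) and 3 compared to WT mice (8.65%). In vehicle-treated Tg4-42 against WT mice 1 was higher at this p (1.65%). With caffeine compared to vehicle in Tg4-42 mice all 9 had negative log2 fold changes (51.5% of all genes), with a median of -0.42. They were largest for Ctss (-0.77, edgeR adjusted p 0.103), Ctsc (-0.69) and Ctsk (-0.66). Ctss, a cathepsin of microglia, was at 9.31, 10.1 and 9.80 CPM with vehicle and 6.10, 6.08 and 4.92 CPM with caffeine. In vehicle-treated Tg4-42 against WT mice 6 were positive, with the largest values for Ctsc (0.78), Ctss (0.25) and Ctsk (-0.25), and between caffeine-treated Tg4-42 and WT mice 8 were negative, led by Ctsk (-0.91), Ctss (-0.52) and Ctsh (-0.50).

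Of the 9 genes for lysosomal sorting and other lysosomal proteins, all were tested. Lamp2, a protein of the lysosomal membrane, was called lower with caffeine (log2 fold change -0.64, SE 0.13, edgeR adjusted p 0.0399), at 141.3, 141.2 and 162.1 CPM with vehicle and 109.5, 89.5 and 85.8 CPM with caffeine. Without replicate 1 or 3 of the vehicle group or replicate 2 or 3 of the caffeine group it was not called (edgeR adjusted p 0.0736, 0.228, 0.0877 and 0.278), nor with the lane as a covariate (0.0582). Grn (-0.55, edgeR adjusted p 0.0525), which codes for progranulin, and Psap (-0.48, edgeR adjusted p 0.104), which codes for prosaposin, followed. Of the 3 sorting receptors of the list, M6pr had -0.34 (unadjusted p 0.0129, edgeR adjusted p 0.171) and was lower without overlap, as were 12.6% of all genes. Igf2r had 0.12 and Sort1 0.04. The factor Tfeb had -0.19. The median of this list was -0.19 with 7 of 9 negative, beside 51.5% of all genes. At an unadjusted edgeR p under 0.05, 4 were lower (9.82% of all genes), and 4 were lower without overlap (12.6%). Compared to WT mice Lamp2 (-0.54), Grn (-0.46) and Psap (-0.44) again had the largest values and 0 were called, and in vehicle-treated Tg4-42 against WT mice the largest were 0.11 for Lamp2, 0.09 for Grn and 0.09 for Gnptab, with 0 called.

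Of 13 protease inhibitors 11 were tested. Serpini1, which codes for the neuronal serpin neuroserpin, was called lower with caffeine, at 1134, 872.9 and 1531 CPM with vehicle and 741.9, 578.0 and 404.1 CPM with caffeine (log2 fold change -1.04, SE 0.22, edgeR adjusted p 0.0462), and also lower than in WT mice (-1.09, edgeR adjusted p 0.0492). The call with caffeine was lost with the same 4 mice left out as that of Lamp2 (edgeR adjusted p 0.0916, 0.242, 0.0958 and 0.278), and the call against WT mice without any WT mouse (0.0971 to 0.129) and without replicate 2 or 3 of the caffeine group (0.107 and 0.277). With the lane as a covariate both calls were lost (0.0669 and 0.0758), and with only the 2 groups compared the former was lost (0.0784) and the latter kept (0.0200). A2m (-1.07, edgeR adjusted p 0.301), with a value of larger size than that of Serpini1, and Serpine2 (-0.68, edgeR adjusted p 0.129) were not called with caffeine. A2m was low, at 1.84, 2.76 and 0.964 CPM with vehicle and 0.515, 0.484 and 1.69 CPM with caffeine, and these groups overlapped. The list's median with caffeine was -0.54 with 8 of 11 negative (51.5% of all genes). At an unadjusted edgeR p under 0.05, 6 were lower (9.82% of all genes). Timp4 (0.49, unadjusted p 0.00373, edgeR adjusted p 0.109) and Reck (0.48, unadjusted p 0.0416, edgeR adjusted p 0.276) were higher at this p and not called. Cstb (0.05, edgeR adjusted p 0.905) was also positive. Compared to WT mice Timp2 (-0.59) and Cst6 (-0.58) followed Serpini1. In vehicle-treated Tg4-42 against WT mice 0 were called, with A2m (0.52), Serpina3n (0.38) and Cst6 (-0.27) largest.

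Other proteases that cut amyloid beta, of which 8 of 14 were tested, had 0 calls with edgeR in the 3 comparisons. The unadjusted p was under 0.05 for 1, Plat, which was lower with caffeine compared to vehicle (9.82% of all genes). With caffeine 3 values were positive and 5 negative (51.5% of all genes), with a median of -0.21. The largest values with caffeine were those of Bace2 (-0.62), Plat (-0.32) and Mmp14 (-0.32). In vehicle-treated Tg4-42 against WT mice they were those of Mmp14 (1.04, edgeR adjusted p 1.00), Mmp9 (0.25) and Mmel1 (-0.24), and compared to WT mice with caffeine those of Mmp14 (0.72), Bace2 (-0.59) and Plat (-0.15). Mmp14 was near the detection floor in WT mice, at 0.157, 1.33 and 0.582 CPM. Of 8 family relatives with other functions 6 were tested and edgeR called 0. The unadjusted p was under 0.05 for 1, Uqcrc2, which was lower in caffeine-treated Tg4-42 than in WT mice (8.65% of all genes). The medians were -0.14 in vehicle-treated Tg4-42 against WT mice, -0.07 with caffeine and -0.13 between caffeine-treated Tg4-42 and WT mice. Ecel1 had the largest value with caffeine (-1.16, edgeR adjusted p 0.365), followed by Phex (-0.61) and Uqcrc2 (-0.09). Ecel1 was also the largest in vehicle-treated Tg4-42 against WT mice (1.31, edgeR adjusted p 1.00), followed by Uqcrc2 (-0.28) and Phex (-0.23), and compared to WT mice with caffeine the values were -0.84 for Phex, -0.36 for Uqcrc2 and 0.14 for Ecel1. Ecel1 was at 3.68, 16.2 and 6.51 CPM in vehicle-treated Tg4-42 mice. Phex was near the detection floor with caffeine, at 0.147, 0.207 and 0.846 CPM.

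Of 12 precursors of peptides that these enzymes cut, 10 were tested and edgeR called 0. At an unadjusted p under 0.05, 6 were lower with caffeine compared to vehicle (9.82% of all genes) and 5 compared to WT mice (8.65%). With caffeine all 10 had negative log2 fold changes compared to vehicle-treated Tg4-42 mice (51.5% of all genes), with a median of -0.81. Edn1 (-1.52, edgeR adjusted p 0.252), the substrate of the endothelin-converting enzymes, Tac1 (-1.19, edgeR adjusted p 0.0903), the precursor of substance P, and Vip (-1.13, edgeR adjusted p 0.233) had the largest values, and App had -0.28 (edgeR adjusted p 0.303). Edn1 was near the detection floor, at 0.433, 1.22 and 0.803 CPM with vehicle and 0.441, 0.277 and 0.154 CPM with caffeine. Tac1 was at 52.1, 34.6 and 71.6 CPM with vehicle and 17.6, 33.5 and 18.1 CPM with caffeine. Several of these peptides are made by interneurons, whose marker levels with caffeine are given above, and the part of these cells was not tested. Compared to WT mice the largest values were those of Edn3 (-2.16), Edn1 (-1.66) and Vip (-0.88), all 10 being negative, and in vehicle-treated Tg4-42 against WT mice those of Edn3 (-1.04), Tac1 (0.48) and Npy (0.41). Edn3 was also near the detection floor, at 0.441, 0.207 and 0.308 CPM with caffeine and 0.217, 0.834 and 0.964 CPM with vehicle in Tg4-42 mice.

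**Figure D5:**
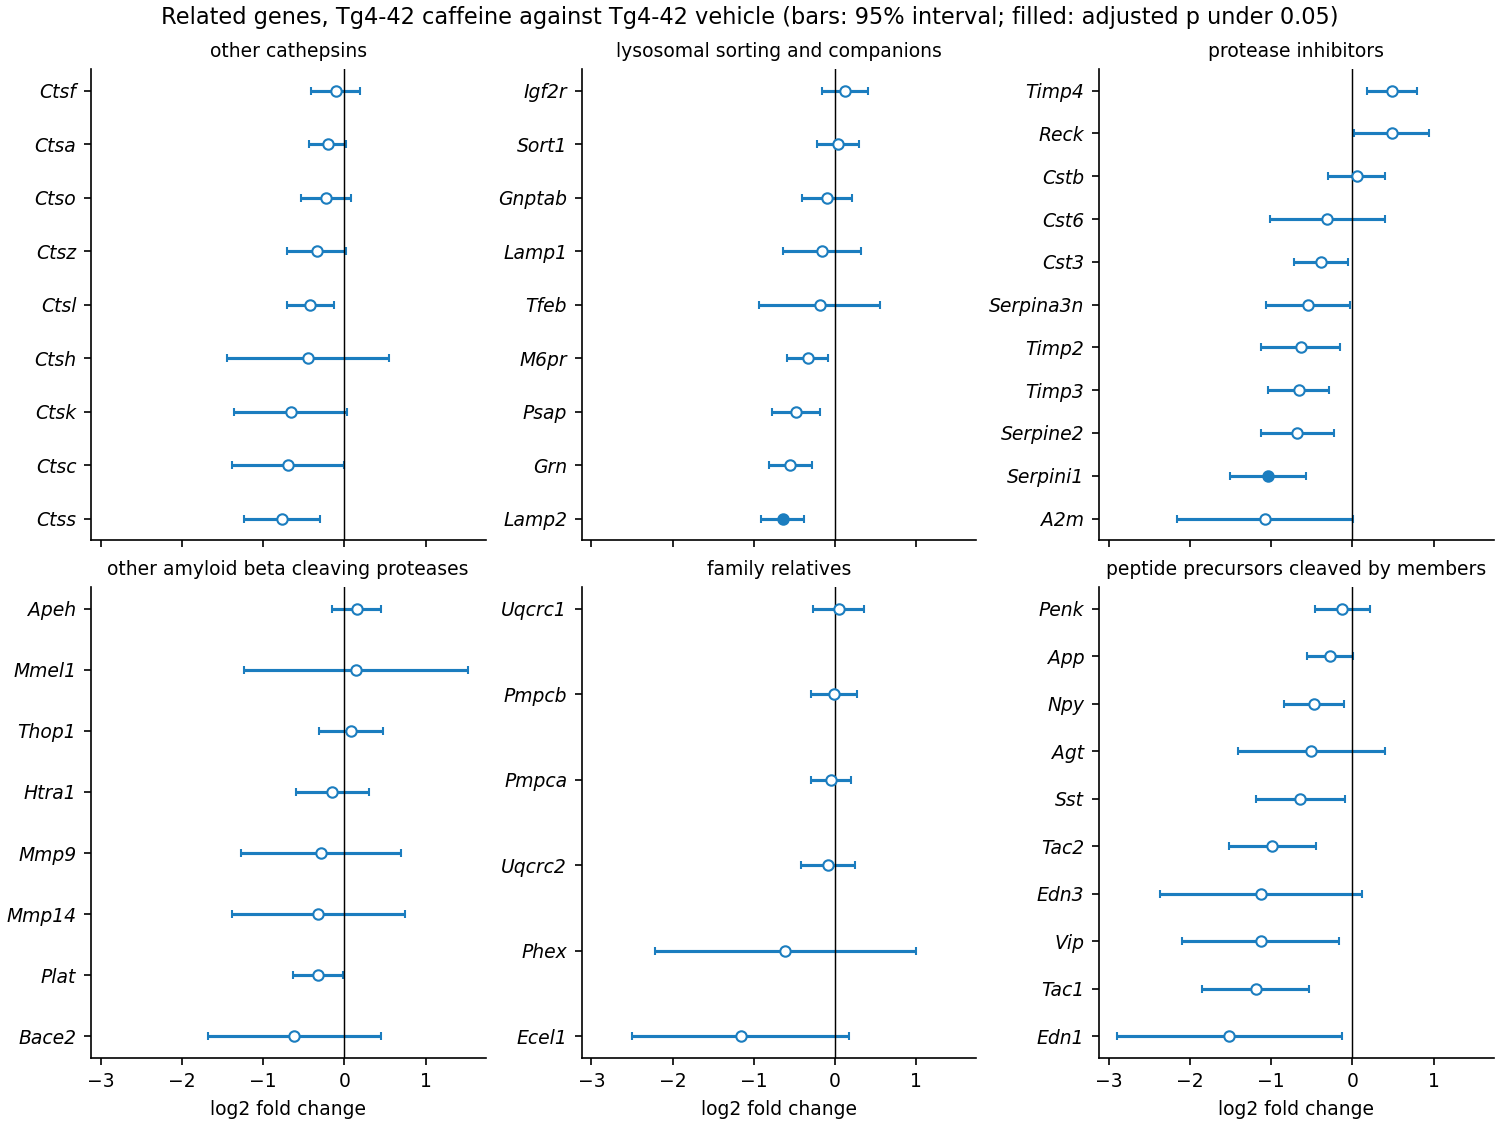
Log2 fold changes of the tested genes of 6 related lists between caffeine-treated and vehicle-treated Tg4-42 mice, from edgeR, with 95% intervals; filled markers have an adjusted p under 0.05. All 9 other cathepsins and all 10 peptide precursors lie below 0, and Lamp2 and Serpini1 are the only filled markers.

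The genes with the level pattern most like that of Ide and of Ctsb were taken from 15977 genes by Pearson's r of log2(CPM + 0.5) over the 9 mice, as a description. Among the genes most like Ide were Zfp133-ps (r = 0.946), Smim20 (0.928), Fbxl18 (0.923) and C2cd4d (0.908), with log2 fold changes in vehicle-treated Tg4-42 against WT mice of 0.75, 0.18, 0.44 and 0.72, each smaller than that of Ide. Of the other enzymes Pitrm1 was most like Ide (r = 0.564, rank 818), followed by Ece1 (0.253). The genes most like Ctsb were Smpd1 (r = 0.989), which codes for the acid sphingomyelinase of lysosomes, Clu (0.986), which codes for the secreted chaperone clusterin, Faim2 (0.984), Lamp2 (0.984) and Dkk3 (0.982). Ctsd ranked 9 among all genes by likeness to Ctsb (r = 0.980), whereas Ide ranked 7286 (r = 0.098). The 9 mice share the group differences given above, and a high r can rest on these alone.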

How the data were processed

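RNA of NeuN-sorted hippocampal nuclei from 9 mice was sequenced by the authors, who aligned single-end reads to mm10 with STAR and deposited, per library, whole counts of reads on the exons of each gene from featureCounts, without normalization. Versions and the strand setting were not given in the sources used here. Symbols and exon lengths came from GENCODE M21 (48349 of 48709 genes, Nrdc being listed there as Nrd1), and upstream sequences from RefSeq on mm10.

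Counts were analysed in R 4.3.3 with edgeR 4.0.16, with its filter (minimum count 10, minimum total 15), TMM scaling and robust quasi-likelihood fits. All 9 libraries were in 1 model with contrasts between the groups, and p-values were adjusted by Benjamini-Hochberg at a threshold of 0.05. Ratios of Ide to other enzymes were formed from CPM without a pseudocount. They were compared with two-sided exact permutation tests in scipy 1.17.1 (Python 3.11.15). A pseudocount of 0.5 was added to CPM for the lane differences of single enzymes and for the correlations between genes. Each label carries its own animal number, but 6 mice per group are named in the labels for nuclei isolation and 3 in the study, and whether nuclei were pooled is not given, so p-values measure the spread between these libraries. Differences between libraries of the same group exceeded sampling noise (chi-square per gene 8.98 to 21.1).

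The genes named are the 9 enzymes, the called genes and the 3 largest log2 fold changes of each related list in each comparison, and the 5 genes most like Ide and Ctsb, of which 1 is not reported here. M6pr, Igf2r, Sort1, Tfeb, Timp4, Reck, Cstb, App, Pou3f1 and the overlapping genes fall outside this rule and were named after their values were seen. The enzymes and lists were chosen with earlier results of these data known. The alternatives were DESeq2 1.42.0, edgeR's version 4 quasi-likelihood method, RLE factors, no filter, a filter at a mean of 50 counts, the replicate number as a block, the lane as a covariate, limma-voom (limma 3.58.1), only the 2 groups compared, and each mouse left out. The edgeR, DESeq2 and voom steps were tested on simulated data. Of the marker lists, those of neurons, CA3 cells, oligodendrocytes and their precursors, mural cells and ependymal cells overlapped between caffeine-treated and vehicle-treated Tg4-42 mice.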

Additional observations from a re-analysis of the deposited data

How the results depend on the processing

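In vehicle-treated Tg4-42 against WT mice the number of called enzymes was 0 with edgeR and 1 (Ide) with DESeq2 and without the filter on low counts, and 0 to 1 with each mouse left out. Between caffeine-treated and vehicle-treated Tg4-42 mice it was 1, and became 4 with DESeq2, 5 without the filter, 2 with a filter at a mean of 50 counts, 0 with the lane as a covariate, 3 with limma-voom and 4 with only the 2 groups compared, and 0 to 2 with each mouse left out. Between caffeine-treated Tg4-42 and WT mice it was 0, and became 3 with DESeq2, 3 without the filter, 1 with a mean of 50 counts and 2 with limma-voom, and 0 to 2 with each mouse left out. The cause was not tested. The log2 fold changes of Ide, Pitrm1 and Mme kept their sign in every alternative run, and so did those of Ctsb, Ctsd, Ace and Ece1 with caffeine. Values near 0 changed sign in vehicle-treated Tg4-42 against WT mice. That of Ace was -0.0046 with DESeq2, -0.0028 with the version 4 method, -0.0038 with RLE factors, -0.0046 without the filter and -0.0024 with only the 2 groups compared. With each mouse left out, it ranged from -0.19 to 0.41 for Ace, -0.076 to 0.44 for Ece1, -0.18 to 0.073 for Ece2, -0.043 to 0.073 for Nrdc, -0.042 to 0.085 for Ctsb and -0.11 to 0.054 for Ctsd. Nrdc ranged from -0.092 to 0.0245 with caffeine compared to vehicle and from -0.064 to 0.024 compared to WT mice, and the ratio of Ide to the 8 others with caffeine from -0.47 to 0.0057. With all mice kept, this ratio ranged from -0.62 for the median of the 8 ratios to -0.169 per kb of exon.

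Replicate numbers follow the order of the samples, and no source says that they pair mice. Deviations from the group means of mice with the same number correlated at 0.138 to 0.188 in vehicle-treated Tg4-42 against WT mice, but at -0.171 to 0.181 between caffeine-treated and vehicle-treated Tg4-42 mice and at -0.170 to 0.008 between caffeine-treated Tg4-42 and WT mice. With the replicate number as a block, the edgeR adjusted p was 0.492 for Ide in vehicle-treated Tg4-42 against WT mice and, with caffeine compared to vehicle, 0.0508 for Ctsb and 0.0393 for Ace, so that 1 enzyme was again called, Ace in place of Ctsb. Serpini1 was then not called with caffeine (0.0515) or against WT mice (0.0576). The ratio of Ide to the 8 others differed by 1.12 with an exact permutation p of 0.25 over pairs, the smallest possible with 3 pairs.

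At the depth of these libraries, 18 to 114 counts lay behind each value of Ace and 81 to 204 behind each value of Mme, whose intervals were the widest beside that of Ace.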
